A study of Homo sapiens with 4 samples.

Results

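The difference between the responses of HepG2 and HCT116 cells to MP-HX was described over 6129 of the 48226 transcript clusters on the array. A response is the change in log2 signal under MP-HX relative to vehicle of the same line, and the difference is the HepG2 response minus the HCT116 response, so that a difference of 1 is a 2-fold difference between the fold changes. Members were chosen by their measured signals: clusters with 1 gene symbol, 16098 in all, were kept where the log2 signal was 6 or more in at least 1 array of each line. The 6129 clusters stand for 5859 genes, and a gene is given here by the cluster with the highest mean signal among its members. Of these genes 5567 were protein-coding, 101 were long noncoding RNAs, 91 were microRNA genes, 75 were transcribed pseudogenes and 25 were of other kinds. All 4 arrays entered both the choice of members and the difference, so every value below is a description with no test.

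The study treated both lines for 24 h with MP-HX, a crude mixture of compounds drawn with hexane out of Melicope ptelefolia leaves, and measured RNA on Affymetrix Human Gene arrays. HepG2 cells, a line from 1 hepatocellular carcinoma, received MP-HX at 78 µg/mL or vehicle (0.39%). HCT116 cells, a line from 1 colorectal carcinoma, received MP-HX at 60 µg/mL or vehicle (0.3% DMSO by its label). The doses were set near the IC50 (the concentration of middle inhibition) of each line, so line and dose cannot be told apart. The methods name the HepG2 percentage for control cells in general, so the percentage given to HCT116 is not settled. RNA of 3 cultures was pooled for each array and each group has 1 array, which leaves no spread between replicates and limits the precision of every value.

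Cells that meet a toxic mixture switch on several stress programmes that run through different sensors. Misfolded protein in the cytosol frees the factor HSF1, which induces the heat shock chaperones, while unfolded protein in the endoplasmic reticulum (ER) acts through sensors such as IRE1, which splices the mRNA of XBP1. Growth factor and stress kinases of the MAP kinase family induce immediate early genes within minutes, and NF-kB induces chemokines and acute phase proteins.

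Over the 5859 genes the difference had a median of 0.09, with quartiles at -0.23 and 0.42 and a range from -3.55 to 3.65. The median response was 0.07 in HepG2 and 0.00 in HCT116. In HepG2, 358 genes (6.11%) were at least 2-fold above vehicle and 201 (3.43%) at least 2-fold below it, against 247 genes (4.22%) and 332 genes (5.67%) in HCT116. The difference was positive in 3339 of 5859 genes (57.0%). In a pool of bulk RNA, fewer cells that express a gene and less of its RNA per cell cannot be told apart.

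A difference of at least 1 was found in 310 clusters (5.06%) and of at most -1 in 118 (1.93%). Counted as genes these were 289 (4.93%) and 116 (1.98%), so 72.4% of the clusters apart had the higher response in HepG2. The cluster count holds HSPA1A and HSPA1B 5 times each and C6orf136 and FLOT1 several times as well. That split depended on scaling: with each array centred on the median of its members, 204 clusters were at least 2-fold apart with HepG2 higher and 179 with HepG2 lower (53.3% higher), and the median difference was -0.03. The share of genes apart changed little with signal. From the lowest to the highest quartile of mean signal, 4.77%, 5.33%, 5.73% and 3.89% of genes had a difference of at least 1, and between 1.91% and 2.05% had one of at most -1.

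**Figure D1:**
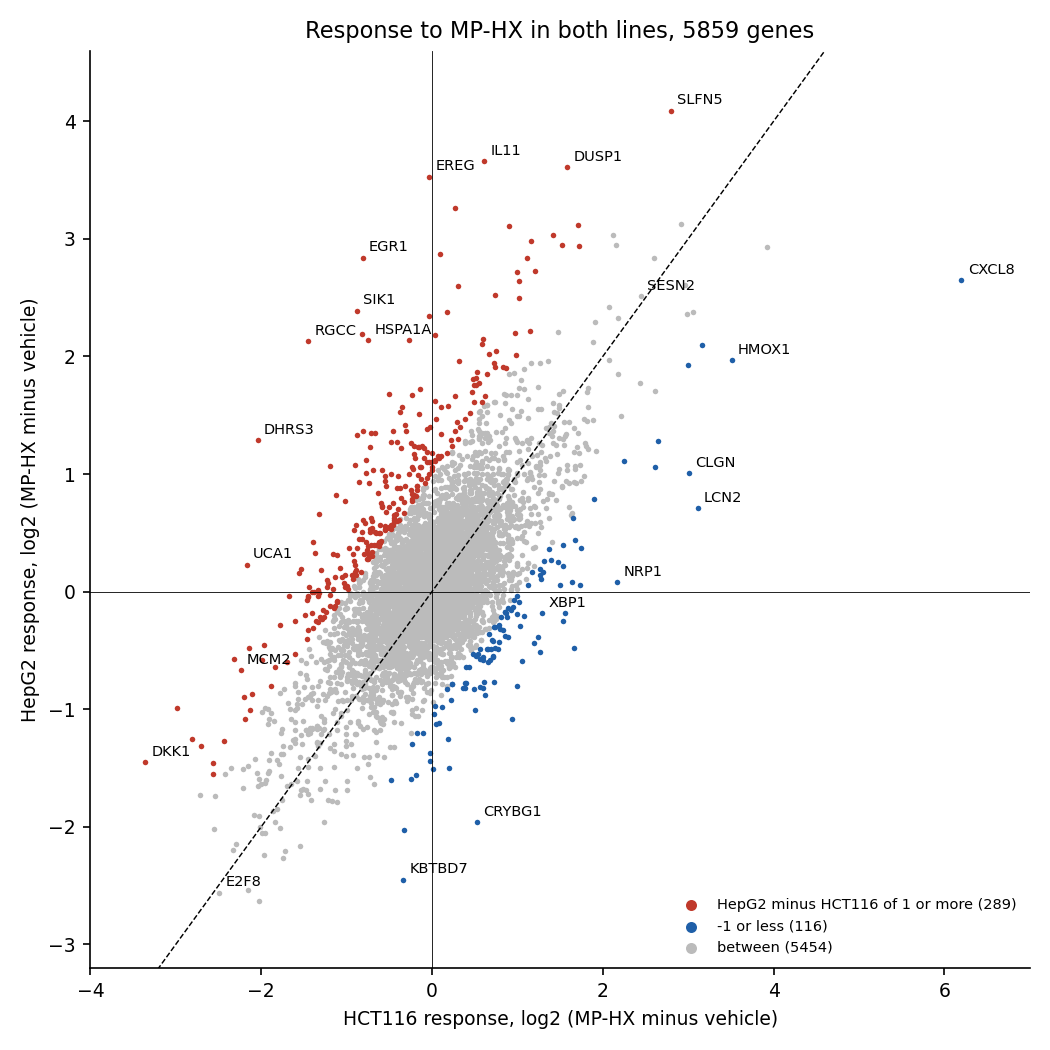
Response to MP-HX (log2, MP-HX minus vehicle) in HepG2 on the y axis and in HCT116 on the x axis, with 1 point per gene for 5859 genes. The 289 genes in red have a difference of at least 1, the 116 in blue one of at most -1, and the dashed line marks equal responses.

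The threshold of 6 cut through a continuous range of signals. Just inside it, 24 clusters had a log2 signal of exactly 6.00 in the brighter array of their dimmer line, with differences from -1.19 (SAMTOR) to 1.43 (DLX2) and a median of 0.13. Just outside, 22 clusters at 5.99 had differences from -0.77 (CLDN15) to 1.34 (MTMR11). Members that passed through 1 array of a line only could differ more easily, and among the 5259 clusters at 6 or more in all 4 arrays 231 (4.39%) had a difference of at least 1 and 90 (1.71%) one of at most -1.

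Hepatocyte genes matched the labels of the lines. Of 16 measured hepatocyte genes, 15 under MP-HX and 16 under vehicle were at a log2 signal of 6 or more in HepG2, against 0 under MP-HX and 1 under vehicle in HCT116, and the medians were 11.39 and 11.67 in HepG2 against 3.66 and 3.65 in HCT116. The 10 measured colon epithelium genes had medians of 4.37 under MP-HX and 4.46 under vehicle in HepG2, against 5.19 and 5.18 in HCT116. The number at 6 or more was 2 and 2 in HepG2, against 3 and 2 in HCT116, so most colon markers were dim in the colorectal line too and their count did not separate the lines. Of 3 measured blood cell genes, 2 and 2 were at 6 or more in HepG2, up to 11.84 under MP-HX and 12.18 under vehicle, against 1 and 1 in HCT116, up to 10.01 and 7.40, and their part in the results was not tested. The 5 measured fibroblast and endothelium genes were at 4.44 or less in every array. Over all clusters the array medians were 3.97 under MP-HX and 4.03 under vehicle in HepG2, and 4.33 and 4.31 in HCT116.

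Promoter sequence is shown for 6 genes whose values carry the descriptions that follow, as the 250 bases before the RefSeq start site (GRCh38.p14), 5′ to 3′ on the gene's strand, with the motif searched in capitals. The heat shock genes HSPA1A (chr6:31815293-31815542, plus strand) and HSPA1B (chr6:31827488-31827737, plus strand) hold GAANNTTC, an inverted pair of HSF1 binding units. EGR1 (chr5:138465229-138465478, plus strand) holds 2 matches to the CArG box of serum response factor, and DUSP1 (chr5:172771196-172771445, minus strand) holds TGACGTCA, the cyclic AMP response element. CXCL8 (chr4:73740319-73740568, plus strand) holds the AP-1 motif TGANTCA, and XBP1 (chr22:28800570-28800819, minus strand) holds the ER stress response element, CCAAT and CCACG with 9 bases between them.
HSPA1A: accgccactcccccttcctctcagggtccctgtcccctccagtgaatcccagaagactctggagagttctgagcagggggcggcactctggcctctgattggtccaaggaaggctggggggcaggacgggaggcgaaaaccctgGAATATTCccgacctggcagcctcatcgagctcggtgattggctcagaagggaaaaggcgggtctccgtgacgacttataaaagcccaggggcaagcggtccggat
HSPA1B: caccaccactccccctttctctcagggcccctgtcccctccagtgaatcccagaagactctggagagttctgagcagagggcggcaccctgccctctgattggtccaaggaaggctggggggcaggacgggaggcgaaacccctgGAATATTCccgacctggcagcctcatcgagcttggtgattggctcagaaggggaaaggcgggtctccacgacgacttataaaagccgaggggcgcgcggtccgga
EGR1: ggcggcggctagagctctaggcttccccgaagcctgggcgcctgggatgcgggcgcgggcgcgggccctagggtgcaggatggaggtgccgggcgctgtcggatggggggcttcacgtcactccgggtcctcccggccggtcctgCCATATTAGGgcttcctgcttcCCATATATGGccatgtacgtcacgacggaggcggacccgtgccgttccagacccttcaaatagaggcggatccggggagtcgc
DUSP1: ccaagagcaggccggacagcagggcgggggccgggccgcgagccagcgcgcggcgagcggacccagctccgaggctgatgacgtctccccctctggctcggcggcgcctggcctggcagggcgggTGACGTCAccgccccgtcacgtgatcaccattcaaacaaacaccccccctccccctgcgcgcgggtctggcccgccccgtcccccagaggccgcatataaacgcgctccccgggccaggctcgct
CXCL8: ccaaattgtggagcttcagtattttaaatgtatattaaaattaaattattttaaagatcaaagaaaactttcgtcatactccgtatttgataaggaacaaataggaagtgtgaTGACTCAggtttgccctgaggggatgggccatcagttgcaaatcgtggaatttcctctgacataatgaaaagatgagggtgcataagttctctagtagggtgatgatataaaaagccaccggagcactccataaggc
XBP1: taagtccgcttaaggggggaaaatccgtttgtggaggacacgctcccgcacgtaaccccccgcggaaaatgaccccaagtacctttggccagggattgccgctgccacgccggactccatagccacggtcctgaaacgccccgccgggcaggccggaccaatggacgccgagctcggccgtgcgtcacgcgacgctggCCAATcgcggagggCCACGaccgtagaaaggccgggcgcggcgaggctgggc
Counted from the start site, the first matched base lies at -106 in HSPA1A, -105 in HSPA1B and EGR1, -125 in DUSP1, -137 in CXCL8 and -52 in XBP1. Aligned over their 250 bases, the HSPA1A and HSPA1B promoters were identical at 235 positions (94.0%).

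Each motif was searched on both strands in all 27305 RefSeq promoters of this length, 1 per gene, of which 4814 belong to member genes, 229 to genes with a difference of at least 1 and 93 to genes with one of at most -1. GAANNTTC was in 3.49% of promoters of genes with a difference of at least 1 and 5.38% of those with one of at most -1, against 3.53% of member genes and 5.85% of all promoters. TGACGTCA, in the same order, was in 5.68% and 4.30%, against 3.32% of member genes and 1.77% of all promoters. TGANTCA, which shares its TGA with the cyclic AMP element, was in 3.49% and 5.38%, against 3.12% and 6.60%. The CArG box was in 4 promoters (1.75%) and in 0, against 0.935% of member genes and 1.14% of all. The ER stress element was in 0 and in 1 (1.08%), against 0.145% and 0.0806%, and that 1 promoter was the one of XBP1 shown above. All promoters shown above are counted in these shares. A match names letters in the window and no more.

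The genes with a difference of at least 1 were mostly dimmer in HepG2 than in HCT116 before treatment. Their median log2 signal was 7.80 under MP-HX and 6.82 under vehicle in HepG2, and 7.61 under MP-HX and 8.21 under vehicle in HCT116, so HepG2 had the lower median with vehicle and the higher one with MP-HX. In 266 of 289 genes (92.0%) the HepG2 vehicle signal was below the HCT116 vehicle signal, against 4439 of all 5859 genes (75.8%), and in 220 (76.1%) the lines were closer with MP-HX than with vehicle, against 57.6% of all. The vehicle arrays enter both the gap and the difference, so these shares are tied to the choice of genes. The 116 genes with a difference of at most -1 had medians of 7.53 under MP-HX and 7.94 under vehicle in HepG2. In HCT116 their medians were 8.07 under MP-HX and 7.28 under vehicle. HepG2 vehicle was above HCT116 vehicle in 93 of them (80.2%), against 23.9% of all genes, and this share is tied to the choice in the same way. The lines were closer with MP-HX in 63 (54.3%), against 57.6% of all.

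The kinds of response behind a difference were not alike. Of the 289 genes, 70 were at least 2-fold above vehicle in HepG2 with a response within 0.5 of 0 in HCT116, and 51 were at least 2-fold below vehicle in HCT116 with a response within 0.5 of 0 in HepG2. A further 13 were at least 2-fold above vehicle in both lines, 8 were at least 2-fold below in both, and 3 (0.0512% of all members) went opposite ways by at least 2-fold in each line. Of the 116 genes, 28 were at least 2-fold above vehicle in HCT116 and near 0 in HepG2, 17 were at least 2-fold below in HepG2 and near 0 in HCT116, and 8 were above in both. The remaining 144 and 63 genes met none of these definitions, and EGR1, SIK1, IL11 and HSPA1B, described below, were among the 144. Responses of opposite sign and any size were found in 175 of the 289 genes (60.6%) and 77 of the 116 (66.4%), against 1824 of all members (31.1%). Choosing genes by a large difference between the responses favours opposite signs, so these shares are tied to the choice of genes.

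**Figure D2:**
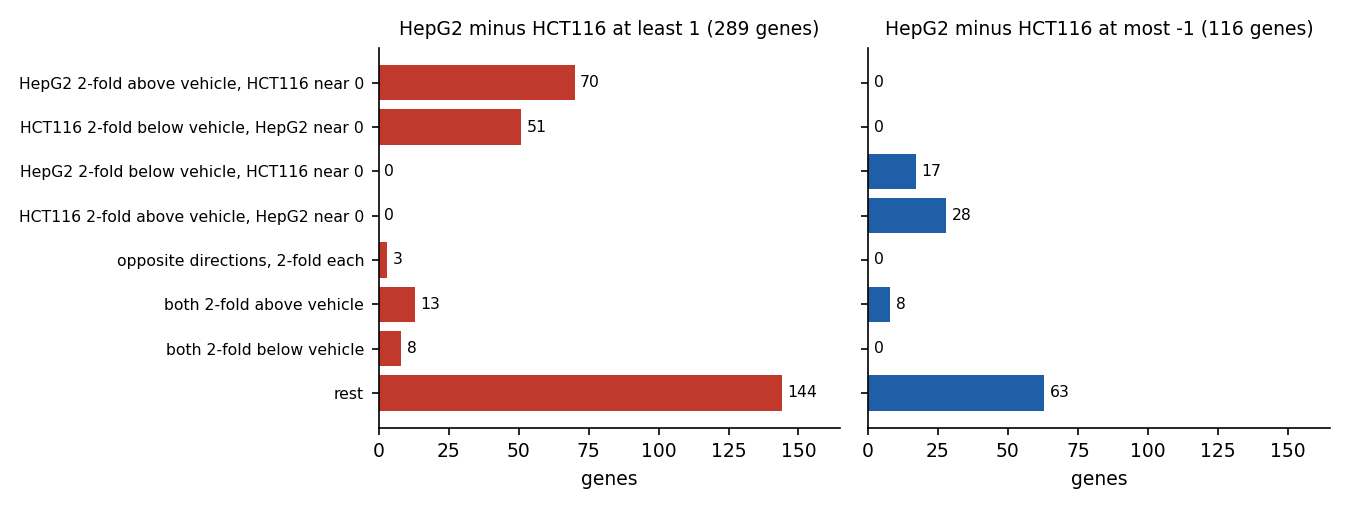
Number of genes (x axis) by the kind of response in HepG2 and HCT116 (rows), for the 289 genes with a difference of at least 1 on the left and the 116 with one of at most -1 on the right. Near 0 means a log2 response within 0.5 of 0, and the longest bars after the rest are 70 genes above vehicle in HepG2 and 51 genes below vehicle in HCT116.

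Heat shock genes stood apart as a group. All 7 member genes had a positive difference and 5 had one of at least 1, against 57.0% and 4.93% of all genes. Their median was 1.21 against 0.09 over all genes, and 5 were above vehicle in HepG2 against 0 in HCT116. The shares over all genes serve for each list below, with 1.98% for a difference of at most -1. HSPA1B, an inducible cytosolic chaperone of the HSP70 family, had a log2 signal of 12.62 under MP-HX and 10.43 under vehicle in HepG2, and 10.95 under MP-HX and 11.77 under vehicle in HCT116. HSPA1A, its near-identical paralogue, had 12.71 under MP-HX and 10.57 under vehicle in HepG2, and 10.81 and 11.56 in HCT116. In both genes the HepG2 array with MP-HX was the brightest of the 4 and the HepG2 vehicle array the dimmest, so the responses had opposite signs: 2.19 in HepG2 and -0.82 in HCT116 for HSPA1B (difference 3.01), and 2.14 and -0.75 for HSPA1A (difference 2.89). Each is represented by 5 member clusters, whose differences ran from 2.37 to 3.39 for HSPA1B and from 2.89 to 3.12 for HSPA1A, and probes cannot be relied on to tell the copies apart.

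The other chaperones and cofactors followed the same order with smaller values. HSPB1, the small heat shock protein HSP27, had 11.04 under MP-HX and 9.67 under vehicle in HepG2, against 11.15 and 11.61 in HCT116, a difference of 1.83. HSPH1, a nucleotide exchange factor for HSP70, had responses of 0.75 in HepG2 and -0.46 in HCT116 (difference 1.21), and BAG3, a cochaperone that links HSP70 to autophagy, 0.90 and -0.18 (1.08). HSPA4L, at -0.36 in HepG2 and -0.93 in HCT116, and the mitochondrial chaperonin HSPD1, at -0.01 and -0.57, were not above vehicle in either line and were 0.57 and 0.56 apart. The list's median response was 0.90 in HepG2 and -0.57 in HCT116.

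Immediate early genes and subunits of AP-1, the dimeric factor of JUN and FOS proteins, were above vehicle in all 15 member genes in HepG2 and in 12 of 15 in HCT116. Of these genes 14 had a positive difference and 6 one of at least 1, against 57.0% and 4.93% of all genes. Their median was 0.91. At least 2-fold above vehicle were 13 in HepG2 and 5 in HCT116, against 6.11% and 4.22% of all genes. EGR1, a zinc finger factor induced by MAP kinase signalling, had the highest difference of all members: its log2 signal was 9.24 under MP-HX and 6.40 under vehicle in HepG2, and 8.19 under MP-HX and 9.0 under vehicle in HCT116. The HepG2 vehicle array stood well below the other 3, and the response was 2.84 in HepG2 and -0.81 in HCT116, a difference of 3.65.

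Among the AP-1 subunits, FOSL1 had 9.51 under MP-HX and 7.36 under vehicle in HepG2, against 10.58 and 9.98 in HCT116, a difference of 1.55. JUNB had 9.16 under MP-HX and 6.66 under vehicle in HepG2, against 9.82 and 8.80 in HCT116 (1.48), and FOSB had responses of 1.12 and 0.03 (1.09). In FOSL1 and JUNB the line with the dimmer vehicle signal was HepG2. JUN itself had nearly the same response in both lines, 2.33 in HepG2 and 2.18 in HCT116, and JUND was the exception at 1.25 and 1.55 (-0.30). ATF3, a stress-induced repressor of the related ATF family, had 3.03 and 2.12 (0.91). The HepG2 vehicle signal of ATF3 was 4.22, near the array median of 4.03, and its difference became 0.007 with 64 added to the linear signal. MYC, the growth-promoting transcription factor, went opposite ways by less than 2-fold in HCT116, with 9.94 under MP-HX and 8.94 under vehicle in HepG2 and 10.13 under MP-HX and 10.61 under vehicle in HCT116, a difference of 1.48. KLF10, a zinc finger factor induced by TGF-beta, had responses of 1.10 and -0.06 (1.16).

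Genes of the MAP kinase feedback list, mostly inhibitors but with the transcription factors ETV4 and ETV5 among them, were divided by gene. Of 12 member genes 3 had a difference of at least 1 and 1 one of at most -1, with a median of 0.35. Once 64 was added to each linear signal, those counts were 1 and 0 and the median 0.16. DUSP1, a nuclear phosphatase of p38, JNK and ERK, had 10.47 under MP-HX and 6.86 under vehicle in HepG2, against 9.33 and 7.75 in HCT116 (responses 3.61 and 1.58, difference 2.03). DUSP8 had responses of 2.73 in HepG2 and 1.21 in HCT116 (1.52) and DUSP5, an ERK phosphatase, 3.12 and 1.71 (1.41), so all 3 phosphatases were at least 2-fold above vehicle in both lines. DUSP16, a phosphatase of JNK, ran the other way, with 8.60 under MP-HX and 8.35 under vehicle in HepG2, against 8.25 and 6.78 in HCT116, a difference of -1.22, and DUSP10 had 1.77 and 2.44 (-0.67). DUSP6, the classic ERK feedback phosphatase, was near 0 in both lines, at -0.29 and 0.09.

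**Figure D3:**
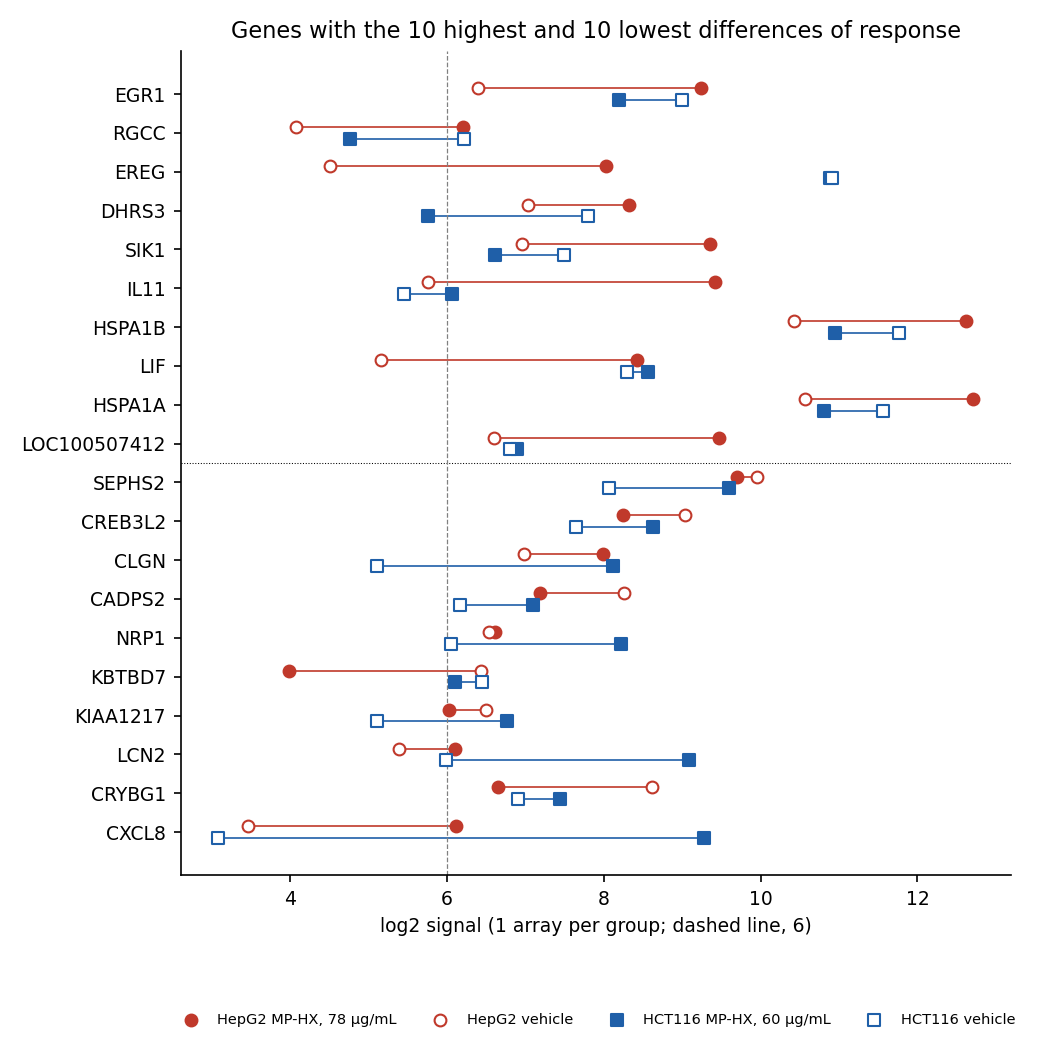
Log2 signal (x axis) on the HepG2 MP-HX, HepG2 vehicle, HCT116 MP-HX and HCT116 vehicle arrays for the genes (rows) with the 10 highest and the 10 lowest differences, with 1 array per group and a line joining the arrays of 1 cell line. In EREG and LIF the HCT116 symbols lie close together and the HepG2 symbols far apart, and in CXCL8 both lines lie above vehicle and HCT116 further so.

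Secreted growth factors and cytokines held several of the highest differences. In HepG2, EREG, LIF and IL11 reached a log2 signal of 6 under MP-HX only, as did IL11 in HCT116. The HepG2 array that made them members also made their differences high, so their rank is tied to the choice of members. EREG, an EGF receptor ligand, had 8.03 under MP-HX and 4.50 under vehicle in HepG2, and 10.88 under MP-HX and 10.91 under vehicle in HCT116. It was dim in HepG2 and bright in HCT116 without treatment, so the response of 3.53 in HepG2 against -0.03 in HCT116 (difference 3.56) narrowed a gap between the lines that stayed at -2.85 with MP-HX. LIF, a cytokine of the interleukin 6 family, had 8.42 under MP-HX and 5.16 under vehicle in HepG2, against 8.56 and 8.29 in HCT116, and thereby came level with the HCT116 arrays (difference 2.99). IL11, of the same family, had 9.42 under MP-HX and 5.76 under vehicle in HepG2, against 6.06 and 5.45 in HCT116, so that the lines were alike without treatment and 3.36 apart with it (difference 3.05). The other members of the EGF list did not follow EREG: HBEGF, a further ligand, had responses of 1.34 in HepG2 and 1.57 in HCT116, and the receptor ERBB3 had -0.64 and 0.43, a difference of -1.07. The list of 7 genes had 1 difference of at least 1, 1 of at most -1 and a median of -0.08.

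Genes of the NF-kB list lay the other way. The members were the chemokine gene CXCL8, the acute phase gene LCN2, ICAM1 and the subunit genes NFKB1, NFKB2, REL and RELB. All 7 member genes had a negative difference, 2 of them at most -1, with a median of -0.44 and median responses of 0.63 in HepG2 and 1.03 in HCT116. CXCL8, the neutrophil chemokine interleukin 8, had the lowest difference of all members, with 6.11 under MP-HX and 3.46 under vehicle in HepG2, and 9.28 under MP-HX and 3.08 under vehicle in HCT116. Both vehicle signals were far below 6 and below the median of their array, so the responses of 2.65 in HepG2 and 6.20 in HCT116 start from signals that are not well measured, and the difference of -3.55 became -2.42 with 64 added to the linear signal. LCN2, an iron-sequestering acute phase protein, had 6.10 under MP-HX and 5.39 under vehicle in HepG2, against 9.09 and 5.98 in HCT116 (difference -2.40). LCN2 reached 6 under MP-HX only in each line, so it was a member through those arrays. The subunit genes were closer to one another: REL had responses of -0.18 in HepG2 and 0.51 in HCT116, NFKB1 -0.01 and 0.43, RELB 0.63 and 1.03, and NFKB2 1.26 and 1.42.

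ER genes leaned to HCT116 as well. Of 10 member genes of the list of ER chaperones and the unfolded protein response, 8 had a negative difference. A difference of at most -1 was found in 2 of them, against 1.98% of all genes, and the median was -0.39. At least 2-fold above vehicle were 1 gene in HepG2 and 3 in HCT116, against 6.11% and 4.22% of all genes. XBP1, the transcription factor spliced by IRE1, had 9.27 under MP-HX and 9.45 under vehicle in HepG2, against 9.44 and 8.15 in HCT116, where the vehicle array was the dimmest of the 4 (difference -1.47). SEL1L, part of the complex that removes misfolded proteins out of the ER, had 9.66 under MP-HX and 9.39 under vehicle in HepG2, against 10.39 and 9.0 in HCT116 (-1.12). HYOU1, an ER chaperone, had responses of 0.55 and 1.28 (-0.73), while the sensor ATF6 was alike in both lines, at 1.04 in HepG2 and 0.89 in HCT116. ERN1, which encodes IRE1 and was named after its values were seen, ran against the list, with 8.58 under MP-HX and 5.63 under vehicle in HepG2 and 8.07 and 6.55 in HCT116 (responses 2.95 and 1.52, difference 1.43).

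Outside that list, a pair of ER genes were among the 15 lowest. CLGN, a calnexin-like ER chaperone best known in testis, had 7.99 under MP-HX and 6.98 under vehicle in HepG2, against 8.11 and 5.10 in HCT116 (responses 1.01 and 3.01). CREB3L2, an ER-anchored transcription factor, had 8.24 under MP-HX and 9.04 under vehicle in HepG2, against 8.63 and 7.64 in HCT116, on opposite sides of vehicle by less than 2-fold each (difference -1.79). CLGN was above vehicle in both lines and further in HCT116.

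Targets of ATF4 and CHOP, the integrated stress response, did not separate the lines as a group. Their 10 member genes had median responses of 1.92 in HepG2 and 1.82 in HCT116 and a median difference of -0.22, with 1 gene at each end. ASNS, which makes asparagine, had 9.0 under MP-HX and 7.10 under vehicle in HepG2, against 10.00 and 9.13 in HCT116 (1.03). DDIT4, an inhibitor of mTORC1, had 9.08 under MP-HX and 7.15 under vehicle in HepG2, against 10.91 and 7.91 in HCT116 (-1.07). SESN2, a stress-induced regulator of mTORC1, had almost equal responses, 2.51 and 2.45, and TRIB3, a pseudokinase that restrains ATF4, 1.73 and 1.83.

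Amino acid enzymes were divided. CTH, which makes cysteine out of cystathionine, had 9.17 under MP-HX and 6.57 under vehicle in HepG2, against 7.07 and 6.77 in HCT116, a difference of 2.30. PSPH, the last enzyme of serine synthesis, had 7.42 under MP-HX and 8.30 under vehicle in HepG2, against 7.99 and 7.88 in HCT116 (-0.99). The 7 member genes of amino acid transport and synthesis had a median of 0.42 with 2 at 1 or more, and the 13 tRNA charging enzymes a median of 0.21 with 0 apart, 0.80 in HepG2 and 0.23 in HCT116 by median response. VARS1, which charges valine, was furthest apart of these at 0.81 and -0.11.

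Most genes of the oxidative stress and metal responses were above vehicle in each line. Among 7 targets of NRF2, the oxidative stress factor, 6 were above vehicle in HepG2 and 6 in HCT116, the exceptions being TXN, a thioredoxin, with responses of -0.18 and 0.28, and TALDO1, a pentose phosphate enzyme, with 0.24 and -0.55. The NRF2 targets had median responses of 1.35 in HepG2 and 1.71 in HCT116, a median difference of -0.12 and 1 gene at -1 or less. That gene was HMOX1, the haem-degrading enzyme, with 10.24 under MP-HX and 8.27 under vehicle in HepG2, against 11.21 and 7.70 in HCT116 (difference -1.54). SRXN1, which repairs oxidised peroxiredoxins, had 1.97 and 2.07, and TXNRD1, a thioredoxin reductase, 1.35 and 1.71. The list of metallothioneins and zinc export genes had 5 members, all above vehicle in both lines. They were MT1E, MT1F, MT1X, MT2A and the transcription factor MTF1, so no zinc export gene is described by it. The median was 0.35, with none of them apart by 2-fold. MT1F, at 1.54 and 1.04, and MT1E, at 1.21 and 1.83, lay on opposite sides of equality. The metallothionein genes are close in sequence, so the array may mix them.

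Genes of cell division were below vehicle in both lines, and those of replication origins further in HCT116. Of 16 member genes of the replicative helicase and origin, 13 had a positive difference, against 57.0% of all genes. A difference of at least 1 was found in 6 of them, against 4.93% of all genes. The median responses were -1.0 in HepG2 and -1.92 in HCT116. At least 2-fold below vehicle were 8 and 15 genes, against 3.43% and 5.67% of all genes. MCM2, a subunit of the MCM helicase ring, had 7.93 under MP-HX and 8.60 under vehicle in HepG2, against 7.41 and 9.65 in HCT116 (difference 1.57). GINS2, of the GINS complex that activates the helicase, had 6.56 under MP-HX and 7.81 under vehicle in HepG2, against 6.04 and 8.85 in HCT116 (1.56). In both genes HCT116 was the brighter line with vehicle and the dimmer line with MP-HX.

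The kinase CDC7, which fires origins, had responses of -0.58 in HepG2 and -1.99 in HCT116 (1.41), the licensing factor CDT1 -0.07 and -1.46 (1.39), MCM5 -0.64 and -1.84 (1.20) and MCM4 -1.08 and -2.19 (1.11). Against this order ran CDC6, a licensing factor, at -1.64 and -0.68 (-0.96), GINS1 at -2.16 and -1.55, and TICRR at -2.63 and -2.02. CDC6 and CDT1, which load the MCM ring together, were therefore further below vehicle in different lines. Deoxynucleotide synthesis had the same lean with smaller values: its 6 genes were 0.44 to 0.79 apart, with 1 gene in HepG2 and 6 in HCT116 at least 2-fold below vehicle, and RRM2, the regulated subunit of ribonucleotide reductase, had -1.13 and -1.92. The 4 fork enzymes had a median difference of 0.40 and 0 genes apart.

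Mitotic genes differed less between the lines. Their 24 members had median responses of -1.37 in HepG2 and -1.63 in HCT116, 18 and 23 were at least 2-fold below vehicle, the median difference was 0.28, and PLK1 alone was 2-fold apart. PLK1, a kinase of mitotic entry and exit, had 10.28 under MP-HX and 11.18 under vehicle in HepG2, against 9.04 and 11.24 in HCT116 (1.30). NDC80, which binds kinetochores to microtubules, had -2.00 and -2.01, the spindle kinesin KIF11 -2.05 and -1.99, and CDK1 -1.87 and -1.86. Homologous recombination and Fanconi genes leaned the other way, with 7 members, a median of -0.25 and median responses of -1.61 in HepG2 and -1.45 in HCT116, though that sign turned to 0.11 with 64 added to the linear signal. The 9 genes of the E2F and RB families had a median of 0.05, and E2F8, an atypical E2F that represses transcription, had -2.56 and -2.49.

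Ribosome biogenesis genes were above vehicle in 5 of 10 members in HepG2 and in 1 of 10 in HCT116. All 10 member genes had a positive difference, with a median of 0.58 and median responses of 0.01 in HepG2 and -0.59 in HCT116, and 1 gene was 2-fold apart. The member above vehicle in HCT116 was RRP12, at 1.07 in HepG2 and 0.51 in HCT116. BOP1, which matures the large ribosomal subunit, had 8.09 under MP-HX and 7.02 under vehicle in HepG2, against 7.65 and 8.85 in HCT116, responses of 1.07 and -1.20 and a difference of 2.27. Another BOP1 cluster had 7.19 and 6.24 in HepG2 and 7.54 and 7.85 in HCT116, so its HCT116 response was only -0.31 and its difference 1.26. NOP16 had responses of 0.03 and -0.90 (0.93), PNO1 0.26 and -0.55 (0.81) and NOLC1 -0.01 and -0.68 (0.67), all nucleolar or ribosome assembly factors. The 18 ribosomal proteins themselves had a median of 0.12 and 0 genes apart, close to the 0.09 of all genes.

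Both other genes with opposite responses of at least 2-fold in each line are regulators outside these groups. RGCC, a regulator of the cell cycle and of complement responses, had 6.20 under MP-HX and 4.07 under vehicle in HepG2, and 4.76 under MP-HX and 6.21 under vehicle in HCT116. It reached 6 in 1 array of each line only, and the lines exchanged places with treatment (responses 2.13 and -1.45, difference 3.58). DHRS3, which reduces retinaldehyde to retinol, had 8.32 under MP-HX and 7.03 under vehicle in HepG2, and 5.76 under MP-HX and 7.80 under vehicle in HCT116 (1.29 and -2.04, difference 3.33). The other 2 members of the list of retinoid and aldehyde reductases, RDH10 and RDH11, had differences of 0.60 and -0.29.

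SIK1 and KLF11 were among the 15 highest too. SIK1, a kinase induced by cyclic AMP that restrains CREB coactivators, had 9.35 under MP-HX and 6.96 under vehicle in HepG2, against 6.61 and 7.49 in HCT116, a difference of 3.27. KLF11, a zinc finger factor of TGF-beta signalling, had 8.01 under MP-HX and 5.67 under vehicle in HepG2, against 6.84 and 6.87 in HCT116 (2.37). SNAI2, a repressor of E-cadherin on the TGF-beta list, had responses of 2.98 and 1.16 (1.82), and that list of 4 members had a median of 0.49 with 1 gene apart. In SIK1 and KLF11 the HepG2 array with MP-HX was the brightest of the 4, although HepG2 was the dimmer line with vehicle.

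Noncoding genes were also among the 15 highest. UCA1, named for urothelial carcinoma, had 8.28 under MP-HX and 8.05 under vehicle in HepG2, against 8.36 and 10.53 in HCT116, so that the response of -2.17 in HCT116 made the difference of 2.40. LOC100507412 had 9.47 under MP-HX and 6.60 under vehicle in HepG2, against 6.89 and 6.80 in HCT116 (2.78), and LOC286297, a transcribed pseudogene, 8.87 and 6.73 against 6.15 and 6.42 (2.41). The first of these had its response in HCT116 and the other two in HepG2. Picked out once their values had been seen, LINC-PINT had 7.24 under MP-HX and 6.23 under vehicle in HepG2, against 6.77 and 7.54 in HCT116 (1.78), and NORAD, which sequesters PUMILIO proteins, 11.08 and 11.37 against 11.64 and 10.61 (-1.32).

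More genes of known function just below the first 15 were picked out once their values had been seen. The growth factor FGF2 had 7.16 under MP-HX and 4.05 under vehicle in HepG2, against 7.68 and 6.78 in HCT116 (2.21). SNAI1, a repressor of E-cadherin like SNAI2, had 6.95 under MP-HX and 5.62 under vehicle in HepG2, against 6.77 and 7.65 in HCT116 (2.21). PER1, a repressor of the circadian clock, had responses of 2.18 in HepG2 and 0.04 in HCT116 (2.14), the kinase PIM1 2.38 and 0.18 (2.20), and JAG1, a Notch ligand, 1.23 and -0.73 (1.96). WEE1, the kinase that inhibits CDK1, had 0.66 and -1.32 (1.98). FGF2, PER1 and PIM1 were at least 2-fold above vehicle in HepG2 and under 2-fold in HCT116, whereas WEE1 was at least 2-fold apart from vehicle in HCT116 alone.

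Genes of the Wnt pathway, which acts through beta-catenin, were above vehicle in 1 of 8 members in HepG2 and in 0 of 8 in HCT116. They had a median difference of 0.32 and median responses of -0.36 in HepG2 and -0.80 in HCT116. A difference of at least 1 was found in 3 of the 8, against 4.93% of all genes. DKK1, a secreted Wnt inhibitor, had 7.43 under MP-HX and 8.88 under vehicle in HepG2, against 6.30 and 9.66 in HCT116 (responses -1.45 and -3.36, difference 1.91). AXIN2, a negative regulator that Wnt signalling induces, had 8.63 under MP-HX and 8.63 under vehicle in HepG2, against 6.00 and 7.40 in HCT116 (responses 0.00 and -1.40). MYC, described above, was the third and the one above vehicle in HepG2. RNF43, an inhibitor of Wnt receptors, lay below vehicle by more than 2-fold in each line, with responses of -1.96 in HepG2 and -1.84 in HCT116. FZD4, a Wnt receptor outside the list, had 6.90 under MP-HX and 8.93 under vehicle in HepG2, against 5.89 and 6.22 in HCT116, a difference of -1.70.

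Of 18 listed p53 targets 9 were members. Of these, 2 had a difference of at least 1 and 1 of at most -1, against 4.93% and 1.98% of all genes. The 9 members had median responses of 0.38 in HepG2 and 0.74 in HCT116 and a median difference of -0.25. SFN, the 14-3-3 sigma protein of G2 arrest, had 10.51 under MP-HX and 7.79 under vehicle in HepG2, against 12.07 and 11.07 in HCT116 (1.72). PLK3, a stress-responsive polo kinase, had 8.25 under MP-HX and 6.14 under vehicle in HepG2, against 8.30 and 7.71 in HCT116 (1.52). TP53INP1, a p53-induced nuclear and autophagy protein, was the lowest, with 8.28 under MP-HX and 8.22 under vehicle in HepG2, against 9.22 and 7.49 in HCT116 (-1.67). BBC3, the pro-apoptotic protein PUMA, was alike at 1.44 and 1.55.

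Apoptosis genes showed few differences among the members. Of 17 listed pro-apoptotic genes 9 were measured and 5 were members, and of 9 listed anti-apoptotic genes 8 were measured and 6 were members. BAK1, which opens the outer mitochondrial membrane, had responses of 1.11 in HepG2 and 0.04 in HCT116 (1.07) and was the 1 gene apart of 5 pro-apoptotic members, whose median was -0.11. Among 6 anti-apoptotic genes, with a median of -0.06 and 0 apart, the survivin gene BIRC5 had -0.86 and -1.78 (0.92) and BIRC2, an inhibitor of apoptosis, 0.24 and 1.13 (-0.89). Both sat at opposite ends of a list whose median was near 0. The 13 autophagy and lysosome genes had a median of 0.12 and 0 apart, with the protease genes CTSB at 0.68 and -0.10 and CTSL at 1.94 and 1.16 furthest to the HepG2 side.

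Keratin genes stood out within their list. KRT23 had 8.25 under MP-HX and 9.24 under vehicle in HepG2, against 4.62 and 7.61 in HCT116 (responses -0.99 and -2.99, difference 2.00). KRT19 had responses of 0.63 and -0.45 (1.08) and KRT18 of 0.48 and -0.50 (0.98), both simple epithelial keratins. Another KRT18 cluster had responses of 0.22 in HepG2 and -0.23 in HCT116, a difference of only 0.45. The 13 genes of keratins and cell junctions had a median of 0.07, which turned to -0.01 after quantile normalization and to -0.10 with 64 added to the linear signal, and PKP2, a desmosomal protein, had -1.12 and -0.36 (-0.76).

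Lipid genes had differences of both signs. The 11 cholesterol genes had a median of -0.12, with 4 positive and 7 negative differences and 2 at -1 or less. MSMO1, an enzyme of sterol demethylation, had 10.95 under MP-HX and 11.02 under vehicle in HepG2, against 10.73 and 9.77 in HCT116 (-1.03), and STARD4, a cholesterol carrier, 8.15 and 8.71 against 7.93 and 7.33 (-1.16). SQLE at -0.33 and 0.46 and HMGCS1 at -0.35 and 0.38 had the same signs, whereas DHCR7 at 0.39 and -0.13 and MVD at 0.60 and 0.13 lay the other way. The 11 fatty acid genes had a median of -0.16 and 0 apart, with 5 positive and 6 negative differences. Furthest apart were ACSS2, which activates acetate, at 0.02 and 0.93, and FADS2, a desaturase, at -0.30 and 0.55.

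In energy metabolism HK2, a hexokinase of the first step of glycolysis, had responses of 0.79 in HepG2 and -0.23 in HCT116 (1.02), and 5 glycolysis genes had a median of 0.41. The 7 genes of oxidative phosphorylation had a median of 0.37 and 0 apart, and CYC1, cytochrome c1, was furthest at 0.35 and -0.54. The 6 hypoxia targets had a median of -0.29 and 0 apart, with 2 positive and 4 negative differences. ADM had the largest difference either way, at 0.34 in HepG2 and -0.35 in HCT116 (0.69). On the other side VEGFA was at 0.71 and 1.34 and NDRG1 at 1.19 and 1.66.

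Interferon-stimulated genes had both directions among 6 members with a median of 0.26. SLFN5, a Schlafen family gene, had 9.09 under MP-HX and 5.00 under vehicle in HepG2, against 10.50 and 7.70 in HCT116, and was thus above vehicle in both lines (responses 4.09 and 2.80, difference 1.29). With 64 added to the linear signal that difference was 0.19. IFIH1, the RNA sensor MDA5, had 6.12 under MP-HX and 6.94 under vehicle in HepG2, against 6.92 and 6.32 in HCT116 (-1.42), and RIGI, a related sensor, -0.41 and 0.57 (-0.98). Of 6 reference genes, with a median of 0.15, HPRT1, a purine salvage enzyme, had 7.92 under MP-HX and 7.61 under vehicle in HepG2, against 7.62 and 8.73 in HCT116 (1.42), while GAPDH was at -0.23 and -0.17, B2M at -0.05 and 0.06, and PPIA at -0.81 and -0.69. The list of cyclin-dependent kinase inhibitors and D cyclins had 3 members, CCND1, CDK4 and CDK6, so no kinase inhibitor is described by it. Their median was 0.24, and CCND1 was furthest at -0.62 and -0.97. TIMP1 was the 1 member of the integrin and matrix list, at 1.10 and 1.00, and the proteasome list had 0 members with a named cluster.

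**Figure D4:**
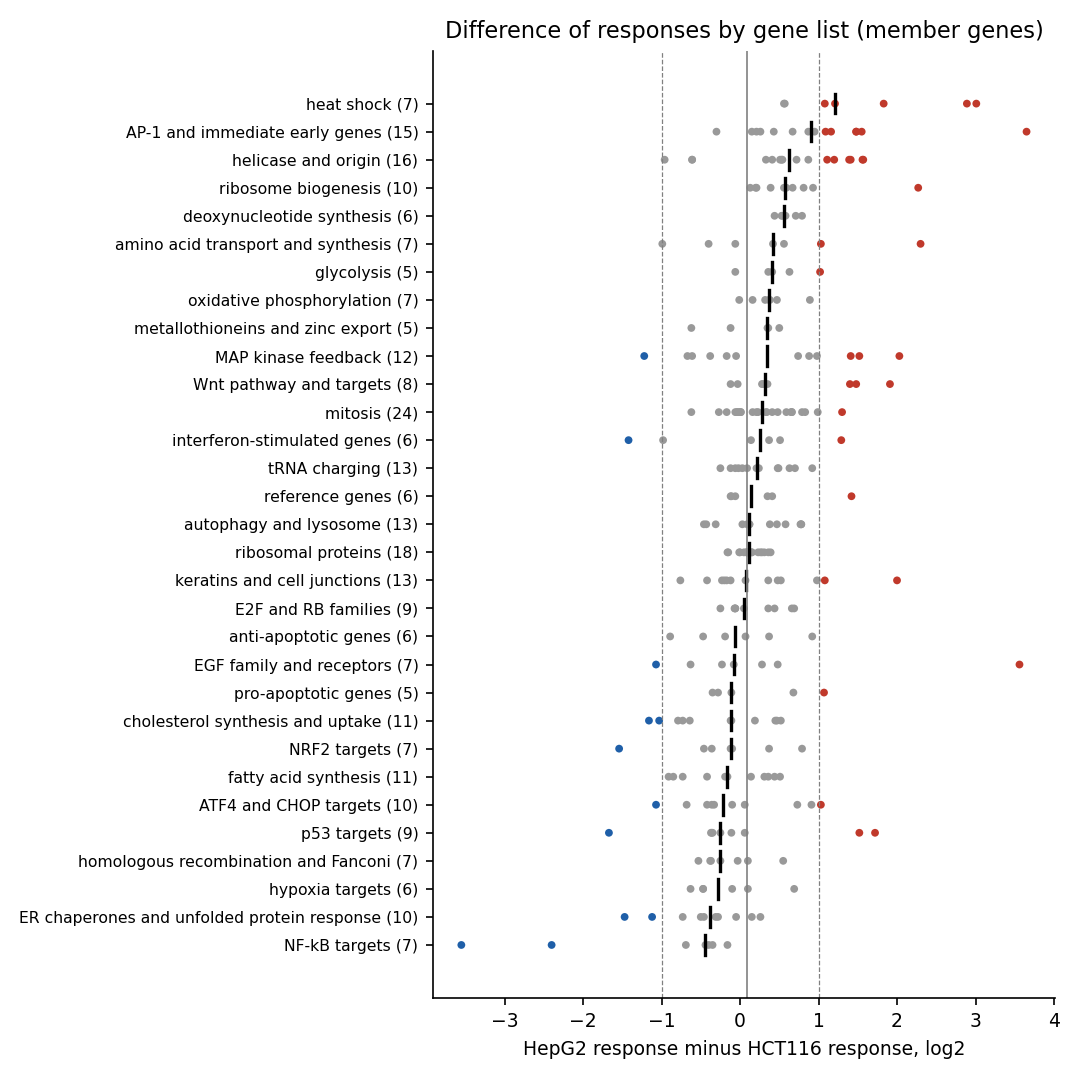
HepG2 response minus HCT116 response (log2, x axis) for the member genes of each list (rows, number of genes in brackets), with 1 point per gene, red at 1 or more and blue at -1 or less. The black bar is the list's median, the grey line the median of all genes (0.09) and the dashed lines -1 and 1: heat shock lies furthest to the right at 1.21 and NF-kB targets furthest to the left at -0.44.

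CRYBG1, CADPS2 and SEPHS2, of the 15 lowest genes, were brighter in HepG2 than in HCT116 with vehicle. CRYBG1, a crystallin-domain gene, had 6.65 under MP-HX and 8.61 under vehicle in HepG2, against 7.44 and 6.91 in HCT116 (responses -1.96 and 0.53, difference -2.49). CADPS2, a regulator of vesicle exocytosis, had 7.18 under MP-HX and 8.26 under vehicle in HepG2, against 7.10 and 6.16 in HCT116 (-2.02). SEPHS2, which supplies selenium for selenoproteins, had 9.70 under MP-HX and 9.95 under vehicle in HepG2, against 9.60 and 8.07 in HCT116 (-1.78). In all 3 genes the lines were closer to each other with MP-HX than with vehicle.

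TFPI, the tissue factor pathway inhibitor of coagulation, had 8.0 under MP-HX and 8.18 under vehicle in HepG2, against 7.35 and 5.79 in HCT116 (-1.74). KIAA1217 had 6.02 under MP-HX and 6.50 under vehicle in HepG2, against 6.77 and 5.11 in HCT116 (-2.14). Both had their larger response in HCT116, upwards. CD68, a lysosomal glycoprotein abundant in macrophages, had 10.81 under MP-HX and 9.75 under vehicle in HepG2, against 10.01 and 7.40 in HCT116 (-1.55), and of 11 blood cell genes 3 were measured here.

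Other genes of the lowest 15 lay within 0.5 of each other in the vehicle arrays. NRP1, a coreceptor for semaphorins and VEGF, had 6.61 under MP-HX and 6.53 under vehicle in HepG2, against 8.22 and 6.05 in HCT116 (-2.09). KBTBD7, a ubiquitin ligase adaptor, had 3.98 under MP-HX and 6.43 under vehicle in HepG2, against 6.10 and 6.44 in HCT116 (-2.11), and its signal with MP-HX in HepG2 was at the level of the array median. EXOC6B, of the exocyst that tethers vesicles, had 7.91 under MP-HX and 8.42 under vehicle in HepG2, against 9.56 and 8.29 in HCT116 (-1.78). TIGD2 had 5.08 under MP-HX and 6.58 under vehicle in HepG2, against 6.69 and 6.49 in HCT116 (-1.70). NRP1 and EXOC6B were at least 2-fold above vehicle in HCT116 and KBTBD7 and TIGD2 at least 2-fold below it in HepG2.

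Of 91 member microRNA genes 6 (6.59%) were at least 2-fold apart, near the 405 of 5859 (6.91%) over all genes, and a cluster of such a gene need not tell the precursor from an overlapping host transcript or from the mature form. A mature sequence is shown for 5 of the 6 genes, and MIR1204 was left out of this display. The sequences are credited to RefSeq (GRCh38.p14, plus strand), with the seed, bases 2 to 8, in capitals. The seed sets which mRNAs a microRNA pairs with, and no seed is shared among the sequences shown. The positions are chr17:59841273-59841294 for miR-21-5p, chr19:18386607-18386627 for miR-3189-3p, chr13:90231242-90231262 for miR-622, chr4:38868092-38868113 for miR-574-3p and chr3:195699460-195699481 for miR-570-3p.
hsa-miR-21-5p: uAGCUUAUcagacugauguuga
hsa-miR-3189-3p: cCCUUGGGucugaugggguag
hsa-miR-622: aCAGUCUGcugagguuggagc
hsa-miR-574-3p: cACGCUCAugcacacacccaca
hsa-miR-570-3p: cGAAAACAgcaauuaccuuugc
These genes were picked out once their values had been seen. MIR21, a microRNA gene often high in tumours, had 7.88 under MP-HX and 5.83 under vehicle in HepG2, against 7.21 and 6.46 in HCT116 (responses 2.05 and 0.75, difference 1.30). MIR3189 had 9.14 under MP-HX and 6.20 under vehicle in HepG2, against 8.56 and 6.84 in HCT116 (2.94 and 1.72, difference 1.22), and lies within GDF15, a stress cytokine gene whose own responses were 2.21 and 1.48 (0.73). MIR622 had a difference of 1.00 and MIR1204 of 1.22. MIR574 had 8.38 under MP-HX and 9.75 under vehicle in HepG2, against 8.45 and 8.47 in HCT116 (-1.35), and MIR570 had a difference of -1.02. MIR21 and MIR3189 were above vehicle in both lines and further in HepG2, whereas MIR574 was apart from vehicle in HepG2 alone.

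Some genes had several clusters. Of 117 genes with more than 1 member cluster, 88 had differences of 1 sign in all their clusters and 80 of these lay within 0.58 of each other. The brightest cluster called 10 of the 117 genes 2-fold apart, and another cluster called 7 of these again. In 37 of the 117 genes some clusters had identical values on all 4 arrays and are counted here as 1 measurement: 103 genes then had more than 1, with 75 of 1 sign, 67 of these within 0.58, and 6 of 9 calls made again. In 4 genes the clusters disagreed in sign by more than 1: LINC00265 ran from -0.63 to 0.70, MEX3D from -0.63 to 0.77, MIR4435-2HG from -0.04 to 1.25 and RPL23AP87 from -0.51 to 0.61. These disagreements are as large as many of the differences counted above. The median genomic span of the genes was 21.8 kb for a difference of at least 1 and 31.6 kb for one of at most -1, against 28.9 kb over all members.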

How the data were processed

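RNA of HepG2 and HCT116 cells treated with MP-HX or vehicle was hybridised to 4 Affymetrix Human Gene arrays, 1 per group, each with RNA pooled out of 3 cultures. The authors deposited log2 signal per transcript cluster with 2 decimals, and, per the submitters' notes, GCOS, Transcriptome Analysis Console and Affymetrix Expression Console were used. Their normalization was not given in the sources used here, and the log2 values entered every step without rescaling. No column was dropped (0 of 4). Rounding can move a difference of responses by up to 0.02.

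Clusters were named through the platform annotation, updated to RefSeq symbols by gene number. Of 48226 clusters 16098 had 1 symbol, 0 had several, and 32128 had none here and entered only the count over all clusters. Signals, responses and counts were computed with Python 3.11.15, pandas 2.3.3 and numpy 2.4.6, and figures drawn with matplotlib 3.10.9. The counting step was checked on data made with known changes. With 1 array per group no test, standard deviation or p-value could be had, and the number of arrays limits the precision.

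A gene was called apart at a difference of at least 1 or at most -1, and a response near 0 within 0.5. The 41 gene lists, 4 of them of cell type markers, and the members themselves were chosen with earlier results of these data known, so a list's direction is not independent evidence. Of 709 distinct list entries 301 had no cluster with 1 symbol, so each list is described by its members only. Genes were named by rule: the 15 highest and 15 lowest differences, opposite responses of at least 2-fold in each line, up to 4 genes per list with the largest difference either way, the 6 with the largest mean response either way among those with a difference within 0.1 of 0, members next to the threshold, and genes whose clusters disagree in sign by over 1. Other list members were given as examples. ERN1, FGF2, SNAI1, PER1, PIM1, JAG1, WEE1, C6orf136, FLOT1 and the noncoding genes outside this rule were named after their values were seen. Alternatives were quantile normalization, centred arrays, 16 or 64 added to the linear signal, signal thresholds of 5 and 7 or of 6 in all 4 arrays, thresholds of 1.5-fold and 3-fold, responses scaled to 1 spread, 1 cluster per gene, and all clusters.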

Additional observations from a re-analysis of the deposited data

Results flagged for a closer look

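Responses of at least 2-fold in each line pointed in opposite directions in 3 genes, with HepG2 above vehicle and HCT116 below it, and with 1 array per group the difference was not tested. RGCC had a difference of 3.58, DHRS3 of 3.33 and BOP1 of 2.27. With 64 added to the linear signal the differences were 1.37 for RGCC, 2.26 for DHRS3 and 1.78 for BOP1, and none of the 3 was then at least 2-fold apart from vehicle in both lines, since the HepG2 responses were 0.77, 0.98 and 0.80.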

How the results depend on the processing

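Clusters with the higher response in HepG2 outnumbered those with the lower one under every alternative run. Their counts, 310 and 118 in the values as deposited, became 204 and 179 with centred arrays. Adding 64 to the linear signal gave 124 and 45. At a signal threshold of 5 the lower count was 200, and over all clusters the counts were 513 and 288. A 1.5-fold threshold gave 974 and 494 and a 3-fold threshold 71 and 18. Quantile normalization (265 and 133), 16 added (216 and 82), responses scaled to 1 spread (308 and 114) and thresholds of 7 (216 and 81) or of 6 in all 4 arrays (231 and 90) stayed within 1.5 times. With 64 added, genes apart with a 2-fold response in HepG2 and one within 0.5 of 0 in HCT116 numbered 35 (87 as deposited). Those with a 2-fold response in HCT116 and one within 0.5 of 0 in HepG2 numbered 37 (79). Genes 2-fold in opposite directions numbered 0 (3) and those 2-fold the same way 7 (29). The cause was not tested. All 65 named genes apart kept their sign under the 5 transformations of the values, and from 48 (64 added) to 64 (scaled responses) were still 2-fold apart. With 64 added the 17 below 2-fold were SLFN5 (0.19), DUSP5 (0.38), KRT23 (0.69), ASNS (0.72), KBTBD7 (-0.73), BAK1 (0.75), ERBB3 (-0.79), TIGD2 (-0.83), HK2 (0.84), IFIH1 (-0.85), AXIN2 (0.86), DUSP16 (-0.87), STARD4 (-0.93), DUSP8 (0.95), MSMO1 (-0.98), PLK3 (0.98) and KRT19 (0.995). EREG was then at 1.94 and LIF at 1.80. Heat shock had a median of 1.16 with 64 added, with 4 of 7 genes at 1 or more, and AP-1 genes 0.50, with 4 of 15. No paired analysis was possible because each group has 1 array, and for the same reason no replicate could be left out. Low signal limits genes such as CXCL8, RGCC, FGF2, ATF3, DDIT3 and KBTBD7, whose dimmest array lay near or below its median over all clusters.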
